A study of Sus scrofa with 4 samples.

Results

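The genes described here build and modify long-chain fatty acids: ACLY, ACSS2, ACACA, FASN, SCD, FADS1, FADS2, ELOVL1, ELOVL5 and ELOVL6. They were chosen by gene symbol, and all 10 were found once each among the 35670 genes listed in the count files of 4 RNA-seq libraries. The cells were porcine fetal fibroblasts (PFFs), skin fibroblasts of pig fetuses that serve as nuclear donors in cloning, and every library came from serum-starved cells. The groups were 2 libraries with the genotype label BRG1-overexpressed, titled pTK-642-BRG1, and 2 libraries with the genotype label WT, titled pTK-642, called controls here. BRG1 is the ATPase of the BAF chromatin remodelling complex, and the design text asks what more of it does to donor cell chromatin and to cloned embryos. The sources used here do not say what pTK-642 is, which promoter was used to express BRG1, or whether a group holds separate cultures. The p-values therefore reflect the spread between libraries, which may be technical.

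Cells make fatty acids in the cytosol from acetyl-CoA, which is carboxylated to malonyl-CoA and condensed into palmitate with electrons from NADPH. Desaturases then place double bonds in the chain and ELOVL enzymes lengthen it in the endoplasmic reticulum, which gives the lipids of membranes and of stored fat. Transcription of much of this pathway is driven by the sterol regulatory element binding proteins SREBP1 and SREBP2, and in fibroblasts the products go largely to membrane lipids.

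Counts per gene summed to 36238580 and 34684837 reads in BRG1-labelled libraries 1 and 2 and to 38126860 and 34486400 reads in controls 1 and 2. SMARCA4, which encodes BRG1, had 159 and 163 CPM (CPM: counts put on a common library size with TMM factors) in BRG1-labelled libraries against 154 and 179 CPM in controls. The groups overlapped (log2 fold change -0.04; adjusted p = 0.765), so the overexpression that the label gives is not seen in this gene's counts. Whether reads of an introduced sequence would be counted here is not known, since its species is not stated. Reads that fell on no annotated gene were 10.3% and 10.5% of the total in BRG1-labelled libraries and 6.11% and 7.34% in controls. Fibroblast markers were abundant in all 4 libraries. They summed to 35711 and 35761 CPM in BRG1-labelled libraries and 24909 and 28259 CPM in controls. Of 9 tested, 6 were higher and 0 lower, against 21.0% and 23.6% of all genes tested. COL3A1, PDGFRB and VIM did not pass, with log2 fold changes of -0.21, -0.22 and -0.27. Of 7 adipocyte markers, ADIPOQ, FABP4 and LEP had 0 reads in every library. The list summed to 12.8 and 11.3 CPM in BRG1-labelled libraries and 5.66 and 5.48 CPM in controls. Most of it was CEBPA, a transcription factor that is not restricted to fat cells. Of 3 tested, CEBPA was higher (1.44 ± 0.19, edgeR adjusted p = 2.71e-05), and CIDEC and PPARG did not pass. Markers of keratinocytes and sebocytes summed to 6.83 and 6.60 CPM in BRG1-labelled libraries and 2.97 and 3.86 CPM in controls; KRT5, KRT1 and AWAT2 had 0 reads throughout, and of 3 tested MOGAT1 was higher and EPCAM lower. Endothelial markers summed to 7.01 and 7.77 CPM in BRG1-labelled libraries and 4.91 and 4.39 CPM in controls, and TEK had 0 reads. Of 2 tested, PECAM1 was higher (1.22 ± 0.25, edgeR adjusted p = 0.000898). The other, VWF, went the opposite way from few reads and did not pass (-1.28 ± 0.52, edgeR adjusted p = 0.0561). Immune markers summed to 2.96 and 4.41 CPM in BRG1-labelled libraries and 1.49 and 2.99 CPM in controls; PTPRC had 0 reads, and of 2 tested, CD68 among them, 0 passed. No melanocyte marker was abundant enough to test. The part of these shifts in the differences below was not tested.

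Of the 10 genes, 6 were lower in the BRG1-labelled libraries and 0 were higher at an adjusted p of 0.05, and 4 did not pass (edgeR quasi-likelihood test, Benjamini-Hochberg adjustment over all 14617 genes tested). All 10 passed the filter on low counts. Among all genes tested 44.6% were called, 23.6% as lower and 21.0% as higher. The 6 were FASN, SCD, ACLY, ELOVL1, FADS2 and ELOVL5, and the 4 others were FADS1, ACACA, ELOVL6 and ACSS2. The median log2 fold change of the 10 was -0.47, beside 0.02 over all genes tested. In 7 of the 10 both BRG1-labelled libraries lay below both controls and in 1 above them, against 35.7% and 37.5% of all genes tested. In bulk RNA, fewer cells that express a gene and less of its RNA per cell cannot be told apart.

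**Figure D1:**
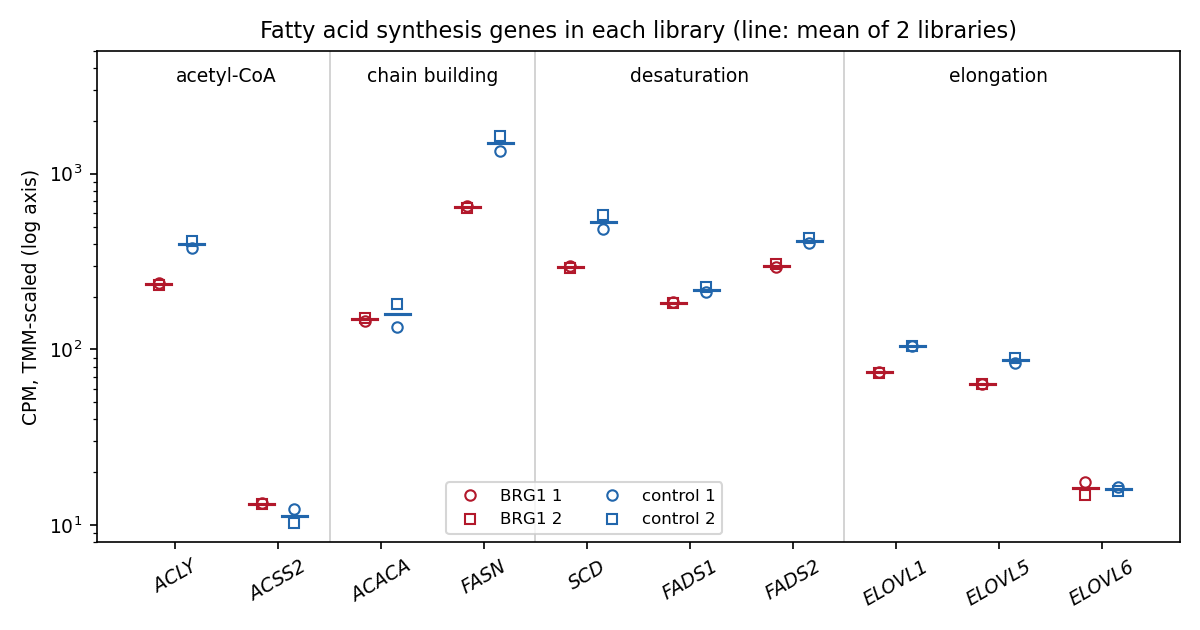
TMM-scaled CPM of the 10 genes in each of the 4 libraries, on a log axis, grouped by the step each enzyme carries out; each line is the mean of 2 libraries, with the BRG1-labelled group on the left of each pair. FASN, SCD and ACLY show the widest gaps between groups, while the groups overlap in ACACA and ELOVL6.

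Acetyl-CoA for the pathway comes from 2 enzymes. ACLY (ENSSSCG00000017421; Sscrofa11.1 chromosome 12, 20796678 to 20841301), ATP citrate lyase, splits citrate exported from mitochondria. It had 238 and 232 CPM in BRG1-labelled libraries against 377 and 416 CPM in controls. The groups did not overlap. On the log2 scale the difference was -0.76 ± 0.10 (SE; adjusted p = 3.47e-05), a level 0.59-fold that of controls with a 95% interval from 0.51-fold to 0.69-fold. ACSS2 (ENSSSCG00000007286; chromosome 17, 38260152 to 38315764) makes acetyl-CoA from acetate instead. It had 13.3 and 13.2 CPM in BRG1-labelled libraries against 12.3 and 10.3 CPM in controls, from 523, 495, 432 and 332 reads in that order. Both BRG1-labelled libraries were above both controls, but the difference of 0.23 ± 0.16 did not pass (adjusted p = 0.263; 95% interval -0.11 to 0.56). With scaling by library size alone it passed as higher (0.45; adjusted p = 0.0273). ACLY reads were 17.8 and 17.5 times those of ACSS2 in BRG1-labelled libraries, against 30.6 and 40.2 times in controls.

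The chain is built by ACACA and FASN, which both lie on chromosome 12. ACACA (ENSSSCG00000017694; 38580916 to 38875067), acetyl-CoA carboxylase alpha, makes malonyl-CoA and is the committed step of the pathway. It had 146 and 151 CPM in BRG1-labelled libraries against 135 and 182 CPM in controls, so the BRG1-labelled libraries lay between the 2 controls. Its log2 fold change of -0.09 ± 0.13 did not pass (adjusted p = 0.579; 95% interval -0.36 to 0.18), and the sign turned with scaling by library size alone (0.13). It also depended on the control used: it was -0.30 without control 1 and 0.12 without control 2.

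FASN (ENSSSCG00000029944; 922405 to 937560) encodes fatty acid synthase, the large multienzyme that assembles palmitate from acetyl-CoA and malonyl-CoA. It had 658 and 640 CPM in BRG1-labelled libraries against 1352 and 1647 CPM in controls, from 25822, 23972, 47317 and 52889 reads in that order. The groups were far apart, and FASN had the largest change of the 10: -1.21 ± 0.12 on the log2 scale (adjusted p = 1.49e-06), or 0.43-fold (95% interval 0.36-fold to 0.52-fold). Its fold change lay at percentile 5.30 of all genes tested, counted from the largest fall. FASN alone made up 33.1% and 32.5% of the reads of the 10 genes in BRG1-labelled libraries and 42.5% and 44.4% in controls, shares that also depend on transcript length. Without FASN, the other 9 genes together took 0.144% and 0.143% of all gene reads in BRG1-labelled libraries against 0.168% and 0.192% in controls.

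Among the desaturases SCD and FADS2 fell and FADS1 did not pass. SCD (ENSSSCG00000010554; chromosome 14, 111461560 to 111478033), stearoyl-CoA desaturase, turns saturated into monounsaturated fatty acids. It had 298 and 292 CPM in BRG1-labelled libraries against 484 and 584 CPM in controls, with a log2 fold change of -0.86 ± 0.11 (adjusted p = 2.51e-05), or 0.55-fold (95% interval 0.47-fold to 0.65-fold). No BRG1-labelled library came near the lower control.

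FADS2 and FADS1 are the front-end desaturases that act in turn on essential fatty acids, and they lie 68.8 kb apart on chromosome 2. FADS2 (ENSSSCG00000013072; 9633941 to 9666666), which starts the path, had 293 and 305 CPM in BRG1-labelled libraries against 401 and 431 CPM in controls (-0.48 ± 0.10; adjusted p = 0.00166). FADS1 (ENSSSCG00000024015; 9735425 to 9747405), which acts after an elongation step, had 187 and 183 CPM in BRG1-labelled libraries against 211 and 227 CPM in controls. Its groups did not overlap either, but the difference of -0.24 ± 0.10 missed the threshold (adjusted p = 0.0598; unadjusted p = 0.0276). It passed in DESeq2 (-0.26; adjusted p = 0.0341) and limma-voom (-0.24; adjusted p = 0.0490), and it was -0.02 with scaling by library size alone (adjusted p = 0.891), so the call depends on the tool and the scaling. With the trend of fold change with gene span removed, described below, it was -0.05 (adjusted p = 0.706). FADS1 was at -0.30 without control 1, -0.21 without control 2, -0.26 without BRG1-labelled library 1 and -0.23 without library 2. FADS3, the neighbour of FADS2 in the same cluster, had 1291 and 1200 reads in BRG1-labelled libraries against 1360 and 1513 in controls (-0.40 ± 0.12; adjusted p = 0.0154).

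Of the 3 elongases, 2 fell by similar amounts and 1 did not pass. ELOVL1 (ENSSSCG00000035238; chromosome 6, 167881357 to 167886125) extends saturated and monounsaturated very long chains, such as those of sphingolipids. It had 74.8 and 73.2 CPM in BRG1-labelled libraries against 105 and 104 CPM in controls (-0.50 ± 0.10; adjusted p = 0.000836), with almost no spread within either group. ELOVL5 (ENSSSCG00000024149; chromosome 7, 46860768 to 46932945), which extends polyunsaturated chains between the FADS2 and FADS1 steps, had 63.5 and 63.6 CPM in BRG1-labelled libraries against 84.3 and 90.04 CPM in controls (-0.46 ± 0.10; adjusted p = 0.00189). ELOVL6 (ENSSSCG00000036236; chromosome 8, 112038670 to 112190079), which lengthens palmitate to stearate and so acts directly after FASN, had 17.6 and 14.9 CPM in BRG1-labelled libraries against 16.6 and 15.7 CPM in controls. The controls lay between the BRG1-labelled libraries, and the difference of 0.01 ± 0.15 did not pass (adjusted p = 0.952). Its 95% interval ran from 0.81-fold to 1.26-fold.

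**Figure D2:**
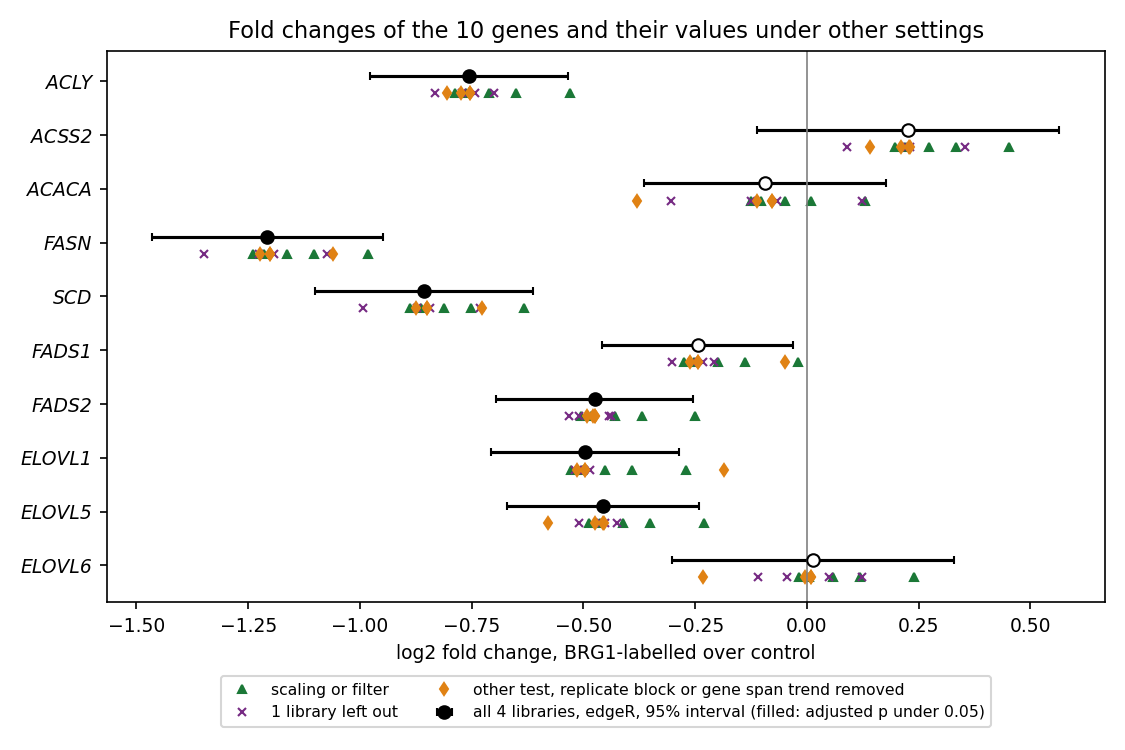
Log2 fold change (BRG1-labelled over control) of each gene with its 95% interval, filled where the adjusted p was under 0.05, and below it the values under 13 other settings. FASN, SCD and ACLY stay left of 0 throughout and passed under all 13, while ACACA and ELOVL6 fall on both sides of 0.

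The falls of FASN, SCD and ACLY passed under each of the 13 alternative settings run, with fold changes from -1.35 to -0.98, from -0.99 to -0.63 and from -0.83 to -0.53 on the log2 scale. The other 3 calls rested on more. FADS2 and ELOVL5 did not pass with scaling by library size alone (adjusted p = 0.0601 and 0.0749), without BRG1-labelled library 1 (0.142 and 0.0740) or without library 2 (0.0830 and 0.0673). ELOVL1 did not pass without BRG1-labelled library 2 (adjusted p = 0.0545). The median log2 fold change of the 10 was -0.45 without BRG1-labelled library 1 and -0.47 without library 2. It was -0.50 without control 1 and -0.43 without control 2.

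Fold changes also varied with gene span, the genomic distance between a gene's ends. Across the 11318 tested genes with a span in the RefSeq table, longer genes had higher fold changes (Spearman correlation 0.29, a description across genes that are not independent replicates). Among the 10 genes the shortest were ELOVL1 (4.77 kb), FADS1 (11.98 kb), FASN (15.2 kb) and SCD (16.5 kb), and the longest were ACACA (294 kb) and ELOVL6 (151 kb), neither of which passed. With each library's trend with span removed, ELOVL1 was -0.19 and no longer passed (adjusted p = 0.127), FADS1 was -0.05, and ACACA was -0.38 and passed as lower (adjusted p = 0.0114). FASN, SCD and ACLY were -1.06, -0.73 and -0.81 in that fit and still passed, and 6 of the 10 were lower. The share of reads outside genes differed between the groups as given above, and its part in these differences was not tested.

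Ratios between the reads of 2 genes within a library do not depend on how libraries are scaled. A fixed effect of gene length cancels between libraries, but a trend of fold change with gene span does not. With the span trend removed from the fit, FASN, ACACA and ELOVL6 were -1.06, -0.38 and -0.23 on the log2 scale. In that fit ELOVL5 was -0.58 and ELOVL1 -0.19. The ratios below are of raw reads, without that removal. FASN reads were 4.52 and 4.24 times those of ACACA in BRG1-labelled libraries, against 10.04 and 9.05 times in controls. The 2 enzymes that build the chain thus differed in how far their reads changed. SCD reads were 0.453 and 0.456 times those of FASN in BRG1-labelled libraries, against 0.358 and 0.355 times in controls. FADS2 reads were 1.57 and 1.67 times those of FADS1 in BRG1-labelled libraries, against 1.90 times in both controls, and this pair differed least among those whose groups did not overlap. ELOVL6 reads were 0.0268 and 0.0233 times those of FASN in BRG1-labelled libraries, against 0.0123 and 0.00951 times in controls. The ratio of ELOVL5 to ELOVL1 overlapped between groups, at 0.849 and 0.869 in BRG1-labelled libraries and 0.805 and 0.865 in controls. The pairs were picked after the counts had been seen, and with 2 libraries against 2 an exact permutation test cannot go below p = 0.333, so they are descriptions.

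**Figure D3:**
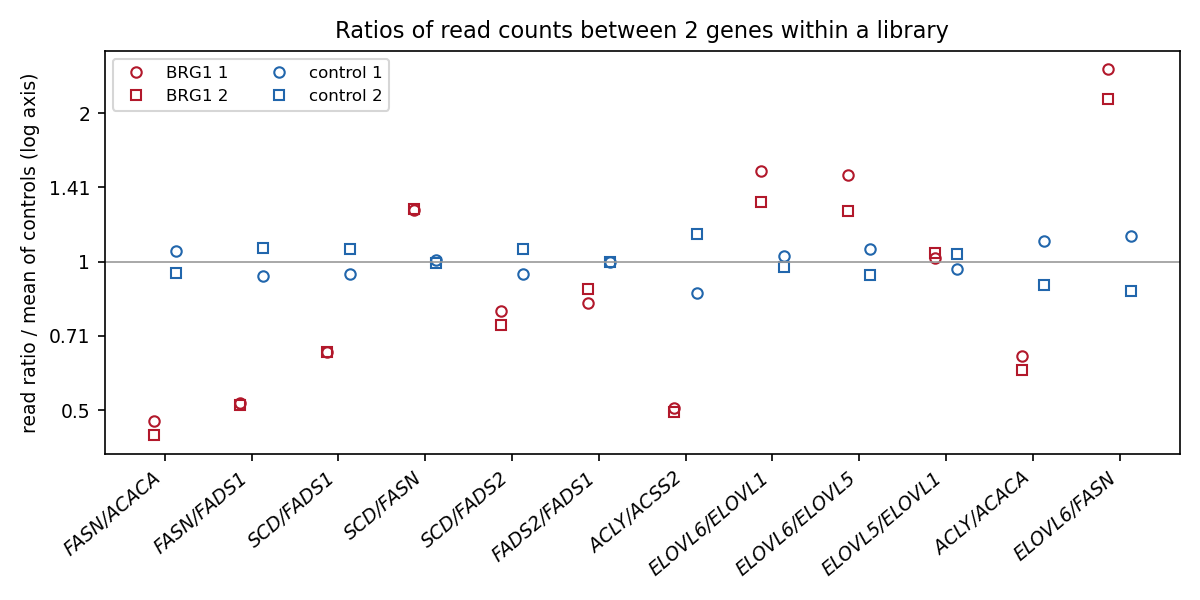
Ratio of reads between 2 genes within each library, divided by the mean ratio of the controls, on a log axis; points are libraries. FASN over ACACA sits near 0.46 of the control mean in the BRG1-labelled libraries and ELOVL6 over FASN near 2.30, while ELOVL5 over ELOVL1 overlaps between groups.

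The genes that control the pathway were looked at as a list of 14, of which 11 could be tested. Of these, 6 were lower and 0 higher (median log2 fold change -0.67, or -0.40 with the span trend removed). Over all genes tested the shares were 23.6% lower and 21.0% higher. SREBF1, which encodes SREBP1, had 250 and 249 CPM in BRG1-labelled libraries against 423 and 438 CPM in controls (-0.79 ± 0.10; adjusted p = 1.85e-05). SREBF2, which encodes SREBP2, had 262 and 273 CPM in BRG1-labelled libraries against 438 and 492 CPM in controls (-0.80 ± 0.11; adjusted p = 2.68e-05). The groups of each gene did not overlap, and both genes fell by about as much as ACLY and SCD. INSIG1, which holds SREBPs in the endoplasmic reticulum and is itself induced by them, fell by 1.01 ± 0.10 on the log2 scale. MID1IP1, which promotes the assembly of acetyl-CoA carboxylase into filaments, had 37.6 and 40.2 CPM in BRG1-labelled libraries against 87.2 and 80.6 CPM in controls (-1.11 ± 0.11; adjusted p = 9.68e-07). NR1H2, the liver X receptor beta, and MLX, a partner of the carbohydrate-responsive factors, were the other 2 that fell (-0.67 ± 0.10 and -0.68 ± 0.11). SCAP, the sterol-sensing escort of SREBPs, was -0.05 ± 0.12 (adjusted p = 0.777). THRSP had 0 reads in every library and MLXIPL 1 read in all 4 together. The 6 falls were matched in number with scaling by library size alone and without either BRG1-labelled library, while 1 gene of the list was higher with scaling by library size alone and 1 without control 2, and 8 were lower without control 1.

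NADPH, the reductant that FASN consumes, is supplied by the pentose phosphate pathway, malic enzyme and isocitrate dehydrogenase. Of 6 genes of these routes, 5 fell and 0 rose (median -0.78), beside 23.6% lower and 21.0% higher among all genes tested. Falls numbered 4 with scaling by library size alone and 4 with the span trend removed. PGD, 6-phosphogluconate dehydrogenase, had 213 and 207 CPM in BRG1-labelled libraries against 522 and 524 CPM in controls (-1.32 ± 0.10; adjusted p = 1.19e-07). TALDO1 and TKT of the non-oxidative branch were at -0.91 ± 0.11 and -0.83 ± 0.10, ME1, malic enzyme, at -0.73 ± 0.11 and PGLS at -0.45 ± 0.13. IDH1 did not pass (0.19 ± 0.11; adjusted p = 0.169), but it was higher under 3 of the settings run, among them scaling by library size alone and leaving out control 1.

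Of 17 other enzymes of synthesis, elongation and desaturation, 4 fell, 2 rose and 11 did not pass (median -0.31). Over all genes tested the shares were 23.6% lower and 21.0% higher. SLC25A1, the carrier that exports the citrate ACLY uses, had 67.2 and 72.5 CPM in BRG1-labelled libraries against 115 and 110 CPM in controls (-0.69 ± 0.10; adjusted p = 6.66e-05). HACD4, a dehydratase of the elongation cycle, was at -0.56 ± 0.11. The rises were those of SCD5, a second stearoyl-CoA desaturase, and CYB5A, the cytochrome that passes electrons to desaturases. SCD5 had 7.32 and 5.16 CPM in BRG1-labelled libraries against 0.63 and 0.75 CPM in controls (3.18 ± 0.33; adjusted p = 2.21e-06), so the desaturases SCD and SCD5 changed in opposite directions. In reads these were 287 and 193 for SCD5 in BRG1-labelled libraries and 22 and 24 in controls, beside 10921 to 18762 of SCD. CYB5A had 35.6 and 37.7 CPM in BRG1-labelled libraries against 17.8 and 15.4 CPM in controls (1.14 ± 0.13). The median was smaller without control 1 (-0.07), control 2 (-0.16) or BRG1-labelled library 2 (-0.10), and with the span trend removed (-0.08). With scaling by library size alone 5 of the 17 rose and 2 fell, and 2 fell without either BRG1-labelled library.

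Of 9 acyl-CoA synthetases, which activate fatty acids for use, 4 fell and 2 rose (median -0.22). Over all genes tested the shares were 23.6% lower and 21.0% higher. ACSL4, which prefers arachidonate, had 713 and 712 CPM in BRG1-labelled libraries against 1852 and 1873 CPM in controls (-1.39 ± 0.11; adjusted p = 1.32e-07). ACSL1 fell by 1.06 ± 0.10 and ACSL5 by 0.61 ± 0.11 on the log2 scale, and ACSS3, a mitochondrial short-chain synthetase, rose by 1.01 ± 0.21. Rises numbered 1 without BRG1-labelled library 1 and 1 without library 2, and the median was -0.38 without control 1 and -0.39 without BRG1-labelled library 1. Of 13 genes of glycerolipid synthesis and lipid droplets, 5 fell and 3 rose (median -0.12), beside the same shares over all genes tested. LPIN1, a phosphatidate phosphatase, fell by 0.76 ± 0.13 on the log2 scale, PLIN3, a lipid droplet coat protein, by 0.54 ± 0.11 and GPAT4, a glycerol-phosphate acyltransferase of the endoplasmic reticulum, by 0.48 ± 0.10, and GPAM, the mitochondrial glycerol-phosphate acyltransferase, rose by 0.80 ± 0.15. That list changed with the libraries used. Its median lay between -0.07 and -0.02 with any 1 library left out, with 1 rise and 2 falls without BRG1-labelled library 1, 2 rises and 1 fall without library 2, and 6 rises and 3 falls when scaled by library size alone.

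Of 19 enzymes of sterol synthesis, which SREBP2 drives, 16 fell and 0 rose (median -0.63), led by ACAT2, which makes acetoacetyl-CoA (63.3 and 65.7 CPM in BRG1-labelled libraries against 192 and 171 CPM in controls; -1.49 ± 0.10). HSD17B7 and EBP, late enzymes of the route, and MVD, an early one, fell by 1.31 ± 0.13, 1.14 ± 0.11 and 1.03 ± 0.11 on the log2 scale. Falls numbered between 12 and 17 under the settings run, and 1 gene was higher with the span trend removed. Of 16 genes of fatty acid oxidation, which breaks down what FASN makes, 4 fell, 2 rose and 10 did not pass (median -0.01). Among all genes tested 23.6% were lower and 21.0% higher (median 0.02). With scaling by library size alone, 5 of the 16 rose. ACAA2, a mitochondrial thiolase, rose by 0.87 ± 0.14 on the log2 scale and DECR1, a reductase for unsaturated chains, by 0.52 ± 0.14. HADHB, a subunit of the trifunctional protein, fell by 0.42 ± 0.10 and ACADVL, the very-long-chain dehydrogenase, by 0.37 ± 0.10. Falls numbered 0 without either BRG1-labelled library and 0 when libraries were scaled by size alone, and rises numbered 5 without control 2 and 1 without BRG1-labelled library 1. Of 3 tested genes of uptake and binding, FABP3, a fatty acid binding protein, had 21.9 and 22.6 CPM in BRG1-labelled libraries against 112 and 103 CPM in controls (-2.27 ± 0.11; adjusted p = 1.80e-09). FABP5 also fell (-1.79 ± 0.53), and LPL, lipoprotein lipase, rose by 2.19 ± 0.30 on the log2 scale from few reads (221 and 333 in BRG1-labelled libraries against 48 and 58 in controls). Falls in this list numbered 1 without control 1 and 1 without BRG1-labelled library 1.

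**Figure D4:**
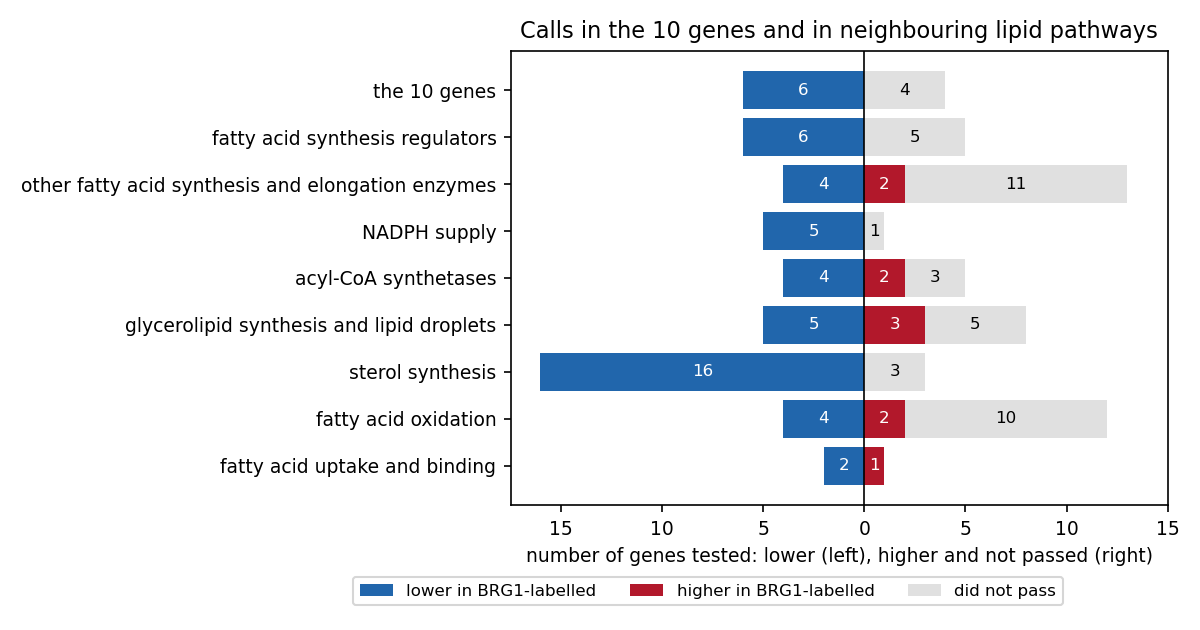
With TMM scaling, numbers of tested genes lower (left of 0), higher and not passed (right of 0) in the BRG1-labelled libraries, for the 10 genes and for 8 lists of related lipid genes. No gene was higher in the 10 genes, the regulators, the NADPH list or the sterol list (1 was in each of the first 3 with scaling by library size alone, and 1 in the sterol list with the span trend removed). Among all genes tested 23.6% were lower and 21.0% higher.

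**Figure D5:**
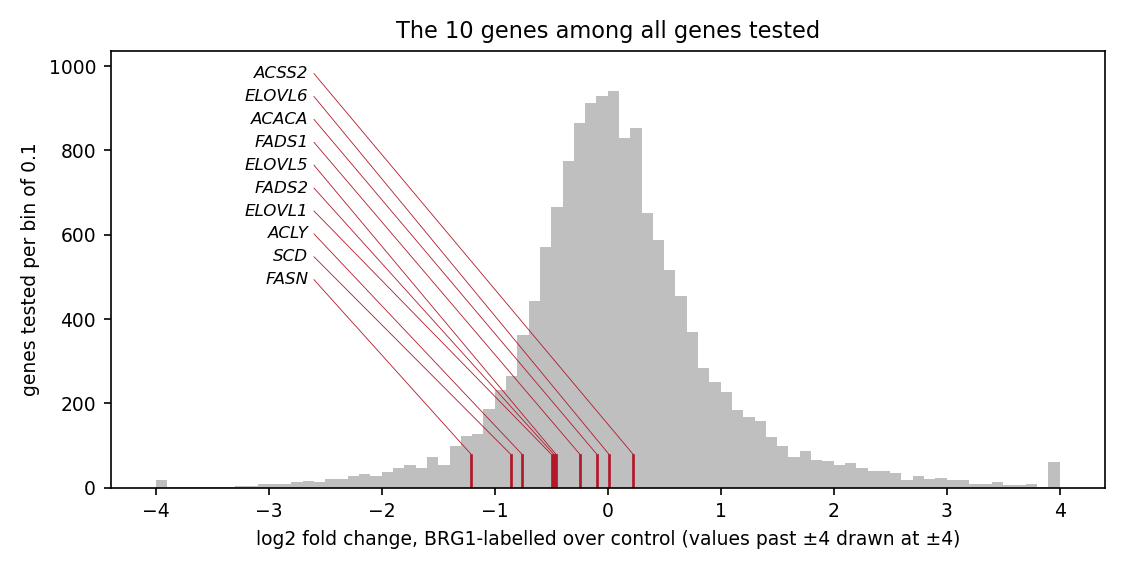
Histogram of log2 fold changes (BRG1-labelled over control) of all 14617 genes tested, with the 10 genes marked. FASN lies at -1.21 and ACSS2 at 0.23, and the median of the 10 is -0.47 beside 0.02 for all genes.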

How the data were processed

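RNA-seq counts of 4 libraries were used. Each deposited file holds raw read counts by Ensembl gene identifier for 1 library, and the authors had not normalized them. The submitters' processing notes name STAR, SAMtools, Cufflinks, FastQC, edgeR and DESeq2 and the build Sscrofa11.1. Read counter, strand setting and annotation release are not given in the sources used here. Reads of overlapping genes cannot be told apart. Rows that name no gene were left out of library sizes; reads assigned to more than 1 gene made up 1.90% to 2.33% and multiply aligned reads 1.42% to 1.80%. Groups and replicate numbers come from the sample titles.

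Counts were analysed in R 4.3.3 with edgeR 4.0.16 (filterByExpr with minimum count 10 and minimum total 15, TMM, quasi-likelihood F test, prior count 0.125, Benjamini-Hochberg over 14617 genes, threshold 0.05). The SE is the unshrunk log2 fold change over the square root of F. Alternatives were other scalings and filters, DESeq2 1.42.0, limma-voom (limma 3.58.1), the replicate number as a block, each library left out, a threshold of 0.01 and removal of the span trend. Spans and coordinates come from RefSeq for the same build, matched by symbol (77.4% of tested genes). The replicates differed by more than counting noise (chi-square per degree of freedom 5.34 in BRG1-labelled libraries and 40.1 in controls).

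The 10 genes and the lists were chosen with earlier results of these data known. Genes named from the lists are the 4 with the smallest adjusted p in each; others named beside them were picked after their values were seen. Promoter and protein sequences were not used here, and 1 gene left out of the NADPH list is not reported here.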

Additional observations from a re-analysis of the deposited data

How the results depend on the processing

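With library sizes as the only scaling, the all-gene median moved to 0.24, 2139 genes were lower and 4820 higher, 1 of the 10 genes was higher (ACSS2), and the median of the 10 was -0.24. That median was -0.36 with upper-quartile factors and -0.42 with the stricter filter. Leaving out 1 library gave 3 to 8 of the 10 as lower, 0 as higher, a median from -0.50 to -0.43, and 2177 to 4321 lower and 1908 to 3673 higher among all genes. Without a control, the spread came from the BRG1-labelled pair alone and the lone control was assumed to vary likewise. ACACA reversed to 0.13 with library size alone and 0.0098 with upper-quartile factors, and ranged from -0.30 to 0.12 with 1 library left out. ELOVL6 was -0.017 without a filter, -0.0043 in DESeq2 and -0.23 with the span trend removed, and ranged from -0.11 to 0.12 with 1 library left out. SMARCA4 was 0.18 with library size alone, 0.061 with upper-quartile factors and 0.0012 with the stricter filter, and ranged from -0.15 (adjusted p = 0.0251, without control 1) to 0.048 (without control 2). Medians reversed for acyl-CoA synthetases (0.0020) and glycerolipid genes (0.11) with library size alone, and for uptake genes with the stricter filter (0.0099). The causes were not tested. The replicate numbers come from the titles alone, and deviations of same-numbered libraries correlated at -0.04. With the replicate block 6 of the 10 were lower, their median was -0.46, and no call among the 10 changed.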

Other observations

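Spread within the groups was uneven. The median coefficient of variation of the 10 genes was 1.69% in BRG1-labelled libraries and 5.98% in controls, beside 5.85% and 10.9% over all genes tested. Control 2 was above control 1 in 7 of the 10 genes, against 48.5% of all genes tested. ACACA (0.44 on the log2 scale), FASN (0.29) and SCD (0.27) differed most between the controls in that direction, and ACSS2 differed in the opposite one (-0.26).

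Genes lying within 5000 bases of the 10 did not share their direction throughout. GSS, glutathione synthetase, lies 434 bases from ACSS2 and fell by 0.72 ± 0.13 on the log2 scale, while GGT7 on its other side rose by 0.52 ± 0.12 (edgeR adjusted p = 0.000278 and 0.00309). FEN1, a nuclease of DNA replication, lies 4598 bases from FADS1 and fell by 0.96 ± 0.16. KLHL11 beside ACLY was at 0.03 ± 0.14 and CDC20 beside ELOVL1 at -0.41 ± 0.24, and neither passed (edgeR adjusted p = 0.879 and 0.189). TADA2A, 88 bases from ACACA, was at -0.23 ± 0.12 and did not pass (edgeR adjusted p = 0.130).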
